A study of Homo sapiens with 6 samples.

Results

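Cholesterol is made in cells from acetyl-CoA through mevalonate, isoprene units, squalene and lanosterol, and most enzymes of the route are regulated together at the transcript level. The transcription factor SREBP-2, encoded by SREBF2, is held in the endoplasmic reticulum by SCAP and the INSIG proteins while membranes are rich in sterol. When sterol is scarce SCAP carries it to the Golgi, where the site-1 and site-2 proteases release the part that enters the nucleus and switches on the genes of cholesterol synthesis and uptake. Followed here were 8 of the 19899 genes in the table, chosen by symbol: HMGCS1, MVD, IDI1, FDFT1, SQLE and DHCR7, which encode enzymes of the route, and SREBF2 and INSIG1, which encode its regulators.

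COV434 is an ovarian cell line grouped by the study with SCCOHT, the hypercalcemic form of small cell ovarian carcinoma, which lacks the chromatin remodeling ATPase BRG1 (gene SMARCA4). RNA was sequenced from 3 Control samples, co-transfected with the empty plasmid pCDNA3-neo, and 3 BRG1 samples, co-transfected with PBJ5-BRG1, so the plasmid backbones differ as well as the insert. In either group a second plasmid, pBABE-puro, gave puromycin resistance, puromycin at 2 to 3 µg/ml was added 24 hours after transfection, and pellets of the parental line, grown in serum, were taken after 3 days on the drug. The samples are numbered 1 to 3 in each group as biological replicates, and the groups were compared within replicate numbers, a pairing that the labels do not state.

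Libraries held between 29699700 and 63613700 estimated counts, with the shallowest in BRG1 sample 3, and the mitochondrial share of counts was 5.18% to 6.00% in Control and 4.13% to 4.61% in BRG1 samples, without overlap. The part of this difference in the results was not tested. Levels are given as CPM, the counts of a gene per 1e6 counts of its library after TMM scaling, which corrects for differences in library composition. They are not divided by gene length, so they compare samples for 1 gene and not genes with each other. SMARCA4 had 31.6, 36.7 and 33.3 CPM in Control samples 1 to 3 and 2319, 1716 and 1729 CPM in BRG1 samples, plasmid transcripts included, and SMARCA2, the other ATPase gene, stayed under 1 CPM in every sample (0.0820 to 0.775 CPM). Of 7 granulosa cell markers 4 stayed under 10 counts in every sample, FOXL2 and FSHR among them, AMHR2 was at 0 throughout, and 3 were tested. Of these CYP19A1, the aromatase gene, was called higher, with 0.348, 0.488 and 0.688 CPM in Control and 9.71, 5.62 and 5.52 CPM in BRG1 samples (log2 fold change 3.69, edgeR adjusted p = 0.000409), and AMH and INHA were not called. The summed level of the 7 was 6.40 to 10.2 CPM in Control and 13.9 to 19.7 CPM in BRG1 samples. RNA from all transfected cells was pooled in each sample, so a lower level in every cell and a loss in some of the cells cannot be told apart.

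The promoters of 4 of these genes are shown because the genes fell together, or, for SREBF2, because it is the regulator of the others. Each window is 300 bases long around a RefSeq start site (GRCh38.p14), and 6 of the 8 genes had a promoter in that table. Capitals mark matches, on either strand, to TCACNCCAC (the core of a sterol regulatory element), to CCAAT (the box bound by NF-Y, a usual partner of SREBPs) and to CACGTG (an E-box), which do not overlap here.
INSIG1, chr7:155297628-155297927, plus strand: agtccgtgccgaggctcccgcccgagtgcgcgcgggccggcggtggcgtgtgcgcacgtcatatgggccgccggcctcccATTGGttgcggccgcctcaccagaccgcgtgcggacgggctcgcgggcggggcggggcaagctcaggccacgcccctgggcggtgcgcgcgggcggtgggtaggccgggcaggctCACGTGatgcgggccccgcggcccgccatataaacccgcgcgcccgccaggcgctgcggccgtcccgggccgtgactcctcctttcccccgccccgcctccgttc
HMGCS1, chr5:43313363-43313662, minus strand: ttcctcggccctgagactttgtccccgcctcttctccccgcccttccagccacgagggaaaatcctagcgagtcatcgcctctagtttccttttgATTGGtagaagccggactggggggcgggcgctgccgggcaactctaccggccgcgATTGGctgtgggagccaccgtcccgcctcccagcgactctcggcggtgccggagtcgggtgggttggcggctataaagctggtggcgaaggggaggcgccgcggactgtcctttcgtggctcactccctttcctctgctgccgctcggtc
MVD, chr16:88663042-88663341, minus strand: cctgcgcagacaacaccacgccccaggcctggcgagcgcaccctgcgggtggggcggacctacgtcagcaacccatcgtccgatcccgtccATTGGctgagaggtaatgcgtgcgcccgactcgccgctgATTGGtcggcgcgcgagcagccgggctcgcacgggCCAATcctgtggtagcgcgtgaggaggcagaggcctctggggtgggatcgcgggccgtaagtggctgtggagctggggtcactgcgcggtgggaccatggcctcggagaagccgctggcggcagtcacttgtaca
SREBF2, chr22:41832855-41833154, plus strand: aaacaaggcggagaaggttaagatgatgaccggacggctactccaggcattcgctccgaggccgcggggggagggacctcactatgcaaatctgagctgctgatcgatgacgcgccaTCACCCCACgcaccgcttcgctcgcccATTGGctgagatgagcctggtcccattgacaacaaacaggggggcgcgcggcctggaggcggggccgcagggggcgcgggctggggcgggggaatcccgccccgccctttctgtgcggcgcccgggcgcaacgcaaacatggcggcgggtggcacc

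In these windows CCAAT or its reverse complement was found in at least 1 promoter of 6 of 6 genes, against 39.7% of the 27305 genes in the table. Counted by promoter, it was found in 7 of the 10 promoters of these genes, against 34.6% of all promoters. GGGCGG (a GC box, not marked above) was likewise found in 6 of 6 genes, against 48.3% of all genes. It was in 9 of the 10 promoters, against 45% of all promoters. TCACNCCAC was found in SREBF2 alone among the 6, 133 bases before the start site, against 1.39% of all genes (1.13% of all promoters). CACGTG was found in INSIG1, 55 bases before the start, against 8.77% of all genes (7.26% of all promoters). The AP-1 motif TGANTCA, a motif of interest in the study, was found in 0 of the 6 genes, against 9.37% of all genes (7.71% of all promoters). A match describes letters only, and degenerate sterol elements would not be found by this search.

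Most of the 8 genes of cholesterol synthesis and its control had lower transcript levels in COV434 cells with BRG1. The edgeR quasi-likelihood test with the replicate number as a block called 7 of the 8 genes lower at a Benjamini-Hochberg adjusted p under 0.05 and 0 higher (7 and 0 at an unadjusted p under 0.05), and DESeq2 with the block called 7 and 0. Among all 14225 genes tested 5.50% were called lower (783 genes) and 13.3% higher (1895 genes), or 440 lower and 2049 higher when samples were scaled by library totals alone. The median log2 fold change of the 8 genes was -0.52, ranging from -0.79 to -0.18, against -0.04 over all genes. In each of the 8 genes the BRG1 sample lay below the Control sample of its number in 3 of 3 numbers, as did 30.0% of all genes. For 4 of them (HMGCS1, MVD, DHCR7 and INSIG1) the groups did not overlap, which held for 11.0% of all genes in this direction. Fewer genes were called without the pairing or without replicate 2, while the median log2 fold change of the 8 was -0.50 and -0.51 there. Without the block edgeR called 2 of the 8 (INSIG1 and DHCR7) and 140 genes in all lower, and DESeq2 without the block called 4. Without replicate 2 the paired test called 2 (INSIG1 and IDI1) and 21 genes in all lower, and without replicate 1 or replicate 3 it called 5.

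**Figure D1:**
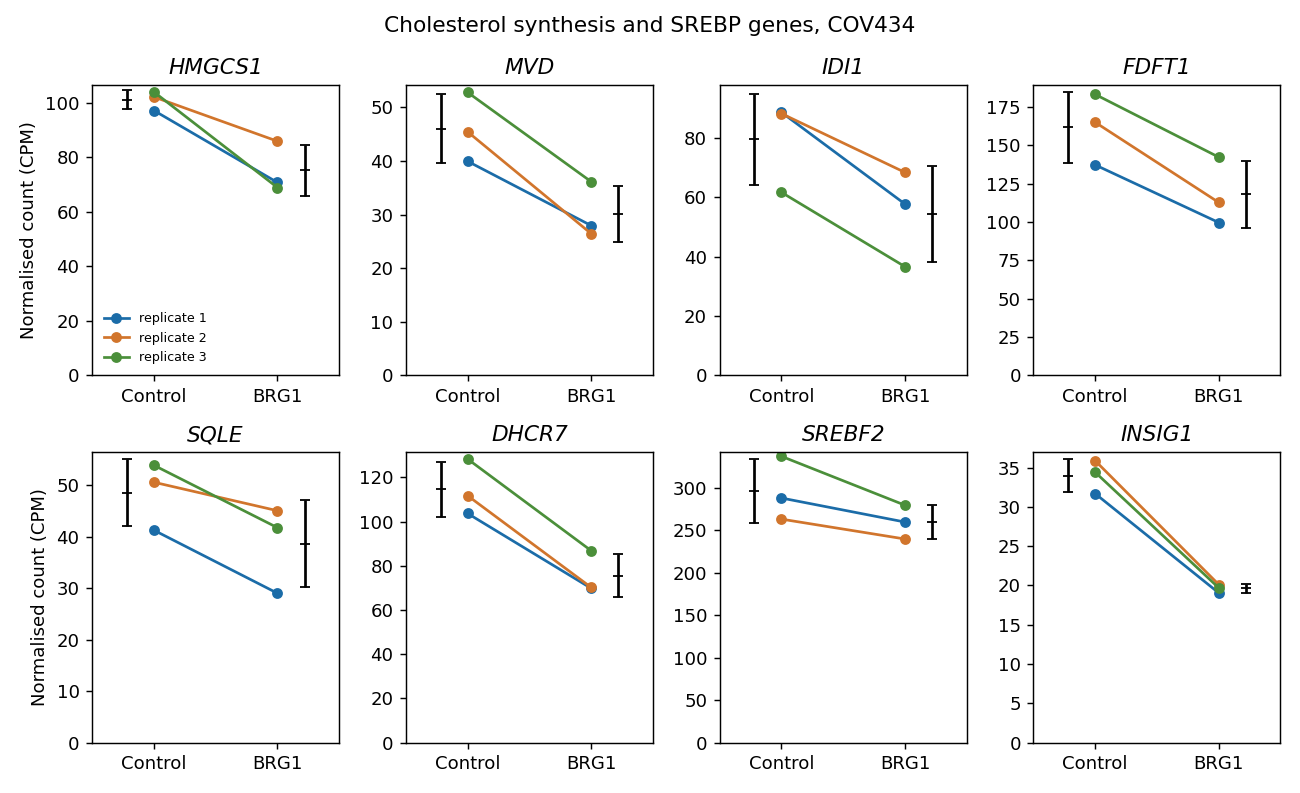
Normalised counts (CPM, linear axis from 0) of the 8 genes in each sample. Points of 1 replicate number are joined, and black bars beside them give the group mean and 1 SD (n = 3). Every line runs downward from Control to BRG1, and for INSIG1 the 3 BRG1 samples lie between 19.1 and 20.1 CPM while the Control samples lie at 31.7 or above.

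INSIG1 had the steepest fall of the 8. Its product binds SCAP when sterol is plentiful and is itself made from a gene that SREBPs switch on. INSIG1 (chromosome 7, 155297776 to 155310235, plus strand, GRCh38) had 31.7, 35.9 and 34.4 CPM in Control samples 1 to 3 and 19.1, 20.1 and 19.7 CPM in BRG1 samples. All BRG1 samples were below all Control samples, and the ratio of BRG1 to Control was 0.601, 0.561 and 0.573 within numbers 1 to 3. The fitted difference was -0.79 on the log2 scale, standard error 0.09 (edgeR adjusted p = 0.00111). It was called in each of the 19 alternative settings, with adjusted p-values up to 0.0433.

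SREBF2 was the member that did not pass the test. It encodes SREBP-2, the factor that acts mainly on the cholesterol genes, and its promoter holds the match to the sterol element core shown above. SREBF2 (chromosome 22, 41833105 to 41907306, plus strand) had 287.7, 262.9 and 336.8 CPM in Control and 259.5, 239.5 and 279.3 CPM in BRG1 samples. The groups overlapped, since BRG1 sample 3 was above Control sample 2. The log2 fold change of -0.18 (95% interval -0.37 to 0.00) did not pass the test (edgeR adjusted p = 0.152), and no alternative fit called it. That interval leaves room for a fall like that of SQLE.

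The first of the enzymes, HMG-CoA synthase, condenses acetyl-CoA with acetoacetyl-CoA on the way to mevalonate. HMGCS1 (chromosome 5, 43287470 to 43313512, minus strand) had 97.2, 102.1 and 103.97 CPM in Control samples and 70.8, 85.9 and 68.9 CPM in BRG1 samples. The Control samples lay close together, and all BRG1 samples were lower. The fitted difference was -0.43 on the log2 scale, standard error 0.09 (edgeR adjusted p = 0.0182). The call was lost without the block (edgeR adjusted p = 0.0660) and without replicate 1, 2 or 3, where it was 0.0501, 0.0724 and 0.0830. A further gene model covers 37.7% of its exonic bases, and reads without strand cannot be assigned to either with certainty.

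Mevalonate diphosphate decarboxylase and isopentenyl diphosphate isomerase supply and interconvert the isoprene units. MVD (chromosome 16, 88651935 to 88663161, minus strand) fell from 39.95, 45.4 and 52.8 CPM in Control to 27.96, 26.4 and 36.1 CPM in BRG1 samples, without overlap. Its fitted difference was -0.61 on the log2 scale, standard error 0.09 (edgeR adjusted p = 0.00391), and the call was lost without the block (0.0651) or without replicate 2 (0.0776). IDI1 (chromosome 10, 1039152 to 1049119, minus strand) was the most variable within a group. It had 88.5, 88.1 and 61.6 CPM in Control and 57.7, 68.3 and 36.6 CPM in BRG1 samples, so that number 3 was low in either group and the groups overlapped. Within numbers its ratio was 0.651, 0.775 and 0.594. The fitted difference was -0.58 on the log2 scale, standard error 0.10 (edgeR adjusted p = 0.00639), and without the block the adjusted p was 0.264. The antisense gene IDI2-AS1 covers 14.97% of its exonic bases.

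Squalene synthase joins isoprene units into squalene, the first step committed to sterols, and squalene epoxidase oxidises it. FDFT1 (chromosome 8, 11795573 to 11839395, plus strand) had 137.1, 164.9 and 183.1 CPM in Control and 99.6, 112.7 and 142.2 CPM in BRG1 samples. BRG1 sample 3 was above Control sample 1, while within numbers the ratio was 0.726, 0.684 and 0.777. The fitted difference was -0.46 on the log2 scale, standard error 0.08 (edgeR adjusted p = 0.00740), and the call was lost without the block (0.167) or without replicate 2 (0.125). SQLE (chromosome 8, 124998497 to 125022283, plus strand) was nearest to the threshold. It had 41.3, 50.6 and 53.9 CPM in Control and 29.0, 45.1 and 41.8 CPM in BRG1 samples, and the groups overlapped. Its fitted difference was -0.35 on the log2 scale, standard error 0.10 (edgeR adjusted p = 0.0453). That call was lost without the block (0.404), with library totals alone (0.0973), among genes with a mean of at least 100 counts (0.0612), and without replicate 1, 2 or 3 (0.237, 0.126 and 0.124).

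DHCR7 encodes the reductase of the last step of the Kandutsch-Russell branch, in which 7-dehydrocholesterol becomes cholesterol. DHCR7 (chromosome 11, 71428193 to 71452868, minus strand) had 103.6, 111.7 and 128.2 CPM in Control and 69.8, 70.2 and 86.8 CPM in BRG1 samples. All BRG1 samples were below all Control samples, with ratios of 0.673, 0.628 and 0.677 within numbers. The fitted difference was -0.60 on the log2 scale, standard error 0.08 (edgeR adjusted p = 0.00185). It was called without the block (0.0269) and just missed the threshold without replicate 2 (0.0505).

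Of 15 further enzymes of the route 7 were called lower, 7 were not called and 1 was called higher (not named here), 14 had a log2 fold change below 0, and the median was -0.28. Over all 21 enzymes, the 6 above included, 13 were called lower and 1 higher. The summed level of the 15, the enzyme called higher included, was not lower with BRG1. It was 857 to 988 CPM in Control and 939 to 1036 CPM in BRG1 samples, with overlap. ACAT2, which makes acetoacetyl-CoA, had 27.8, 35.2 and 37.5 CPM in Control and 17.0, 22.6 and 20.7 CPM in BRG1 samples. Its log2 fold change was -0.74 (edgeR adjusted p = 0.00204), and exons of neighbouring genes cover 22.2% of its exonic bases. Mevalonate kinase (MVK) and the sterol reductase TM7SF2 had log2 fold changes of -0.61 each (edgeR adjusted p = 0.0107 and 0.00333). PMVK, CYP51A1 and SC5D were also called lower and were named after their values were seen, with log2 fold changes of -0.55, -0.37 and -0.40, and another gene model covers 74.1% of the exonic bases of CYP51A1. Without the block 2 of the 15 were called lower (ACAT2 and TM7SF2), without replicate 2 the same 2, and without replicate 1 it was 4.

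**Figure D2:**
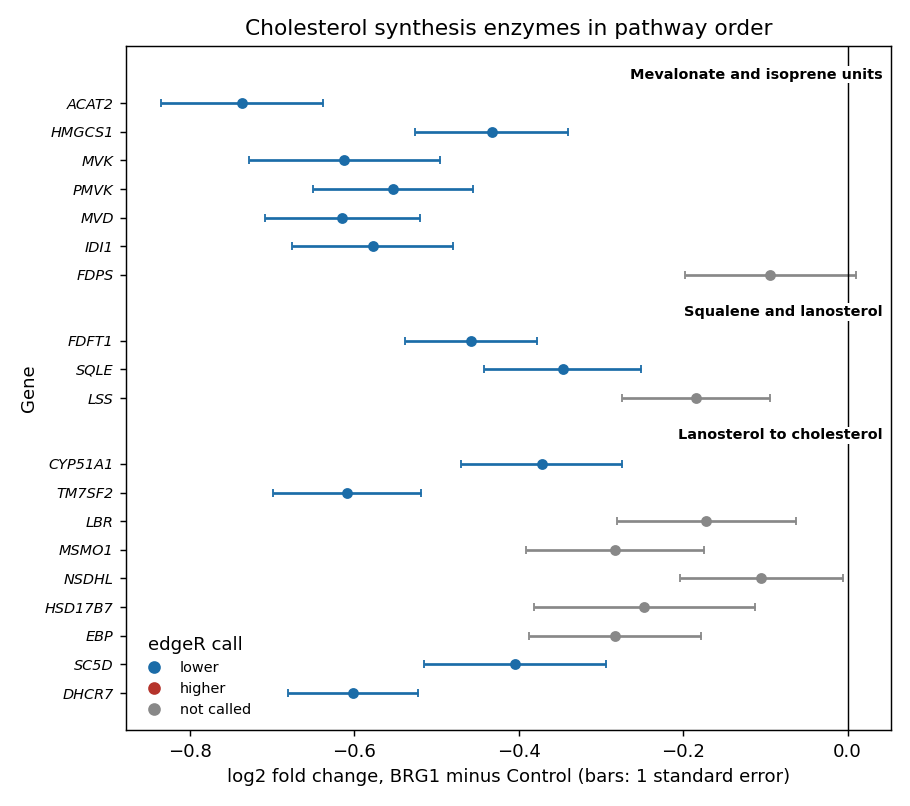
Fitted log2 fold change (BRG1 minus Control, horizontal axis) of enzymes from acetoacetyl-CoA to cholesterol in pathway order. Bars are 1 standard error and colors give the edgeR call with the replicate block. Every enzyme plotted lies left of 0, from ACAT2 at -0.74 to FDPS at -0.09, and the enzyme called higher is not among those plotted.

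Of 5 further genes that control SREBPs 1 was called higher and 0 lower by edgeR (2 and 0 before adjustment, at p under 0.05), and DESeq2 and limma-voom with the block gave the same counts. INSIG2, the second INSIG gene, which lacks the strong SREBP control of INSIG1, had 9.26, 6.75 and 12.7 CPM in Control and 26.1, 15.9 and 15.8 CPM in BRG1 samples. All BRG1 samples were above all Control samples, the opposite order to INSIG1. The fitted difference was 1.02 on the log2 scale, standard error 0.23 (edgeR adjusted p = 0.0203), and the call was lost without the block (0.0813) or without replicate 2 (0.198). SREBF1, whose product acts more on fatty acid genes, had a log2 fold change of 0.25 (95% interval 0.05 to 0.45, edgeR adjusted p = 0.0886), higher in 3 of 3 numbers and not called. SCAP, the sterol sensor and escort, had 70.9, 62.5 and 89.8 CPM in Control and 71.2, 65.2 and 86.9 CPM in BRG1 samples, a log2 fold change of 0.01 (95% interval -0.18 to 0.19, edgeR adjusted p = 0.962) whose sign changed between fits. Of 7 genes that govern the breakdown of sterol enzymes, 0 were called by edgeR, DESeq2 or limma-voom (2 in edgeR at an unadjusted p under 0.05), the range of log2 fold changes being -0.23 to 0.23.

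NPC2 and LIPA, which free and move cholesterol within lysosomes, were the 2 genes called higher by edgeR of the 6 tested for uptake and trafficking. By edgeR 0 were called lower, beside the 13.3% of all genes called higher. At an unadjusted p under 0.05 edgeR gave 3 higher and 1 lower, and DESeq2 with the block called 3 higher and 0 lower. NPC2 had 58.8, 53.3 and 54.0 CPM in Control and 142.7, 90.4 and 71.4 CPM in BRG1 samples (log2 fold change 0.82, edgeR adjusted p = 0.0112), and LIPA had a log2 fold change of 0.37 (edgeR adjusted p = 0.0269). Without the block neither was called by edgeR (0.0602 and 0.150), nor without replicate 2 (0.123 and 0.184), and LIPA was not called without replicate 1 (0.101). Exons of neighbouring genes cover 6.01% of the exonic bases of LIPA, IFIT3 among them, an interferon response gene with 0.822 to 2.03 CPM in Control and 94.6 to 235.1 CPM in BRG1 samples, and its part in the LIPA counts was not tested.

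**Figure D3:**
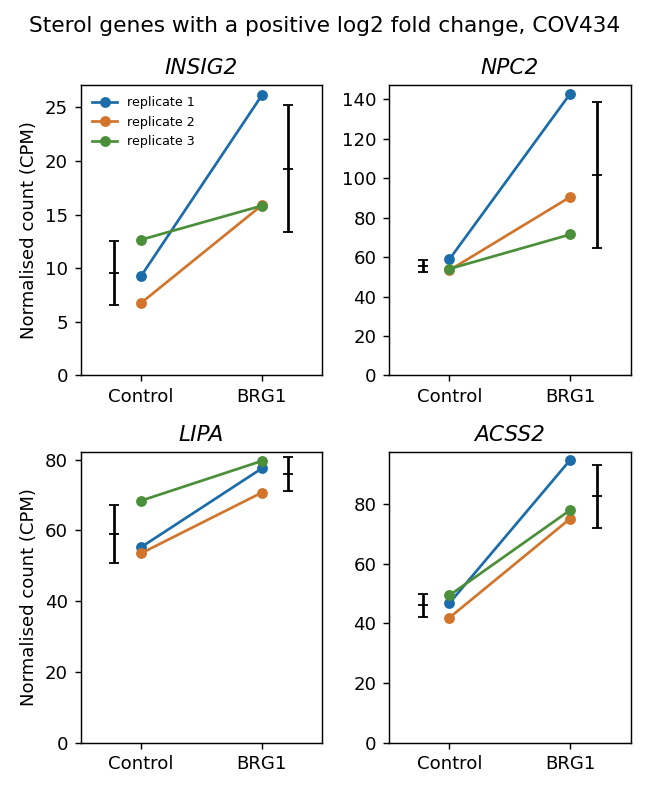
Normalised counts (CPM, linear axis from 0) of 4 sterol genes with a positive log2 fold change, by sample. Points of 1 replicate number are joined, and black bars give the group mean and 1 SD (n = 3). INSIG2, NPC2, LIPA and ACSS2 are higher with BRG1 in every number, and the rise of INSIG2 and NPC2 is smallest in number 3.

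Of 8 genes of sterol export or linked to the liver X receptors, which sense oxysterols and promote export, 2 were called higher and 0 lower by edgeR (5 and 0 at an unadjusted p under 0.05). DESeq2 with the block called 3 and 0, again beside 13.3% of all genes called higher. The receptor genes themselves are among the 8. ABCA1, the main cholesterol exporter, had 0.134, 0.0770 and 0.213 CPM in Control and 5.88, 2.45 and 1.41 CPM in BRG1 samples. Counts were low (3 to 380 per sample), yet the groups lay apart, and the fitted difference was 4.21 on the log2 scale, standard error 0.54 (edgeR adjusted p = 0.00175). ABCG1 had between 2 and 65 counts per sample and a log2 fold change of 2.83 (edgeR adjusted p = 0.0101). Neither receptor gene was called, with log2 fold changes of 0.12 for NR1H2 and 0.07 for NR1H3. CH25H, the enzyme that makes 25-hydroxycholesterol, a sterol that keeps SREBPs in the endoplasmic reticulum, had 0.375, 0.668 and 0.393 CPM in Control and 0.619, 0.505 and 0.492 CPM in BRG1 samples. The groups overlapped at 14 to 40 counts (log2 fold change 0.20, 95% interval -0.76 to 1.16, edgeR adjusted p = 0.773). That interval leaves room for a fall or a rise. Of the 4 genes tested for sterol hydroxylation and esterification 0 were called by edgeR or DESeq2 (0 at an unadjusted p under 0.05).

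Fatty acid synthesis was mixed. Of 10 genes tested 2 were called lower and 2 higher. FADS1, a desaturase, had 139.6, 136.4 and 152.7 CPM in Control and 78.6, 82.5 and 114.7 CPM in BRG1 samples (log2 fold change -0.66, edgeR adjusted p = 0.00407), without overlap. The elongase ELOVL6 had a log2 fold change of -0.56 (edgeR adjusted p = 0.0133). ACSS2 makes acetyl-CoA from acetate and can feed either pathway. It rose from 46.7, 41.9 and 49.3 CPM in Control to 94.7, 75.1 and 77.9 CPM in BRG1 samples (log2 fold change 0.84, edgeR adjusted p = 0.000924). ACSS2 was called in all 19 alternative settings. LPIN1 had a log2 fold change of 0.49 (edgeR adjusted p = 0.0392). Without replicate 2 the calls of FADS1 (0.0854), ELOVL6 (0.163) and LPIN1 (0.265) were lost, as were those of ELOVL6 (0.412) and LPIN1 (0.362) without the block and that of LPIN1 (0.123) without replicate 1. Of 9 genes of the branches that leave the route for other isoprenoids, such as ubiquinone and dolichol, 0 were called by edgeR (3 at an unadjusted p under 0.05) and 1 lower by DESeq2 with the block, and their median log2 fold change was -0.09.

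**Figure D4:**
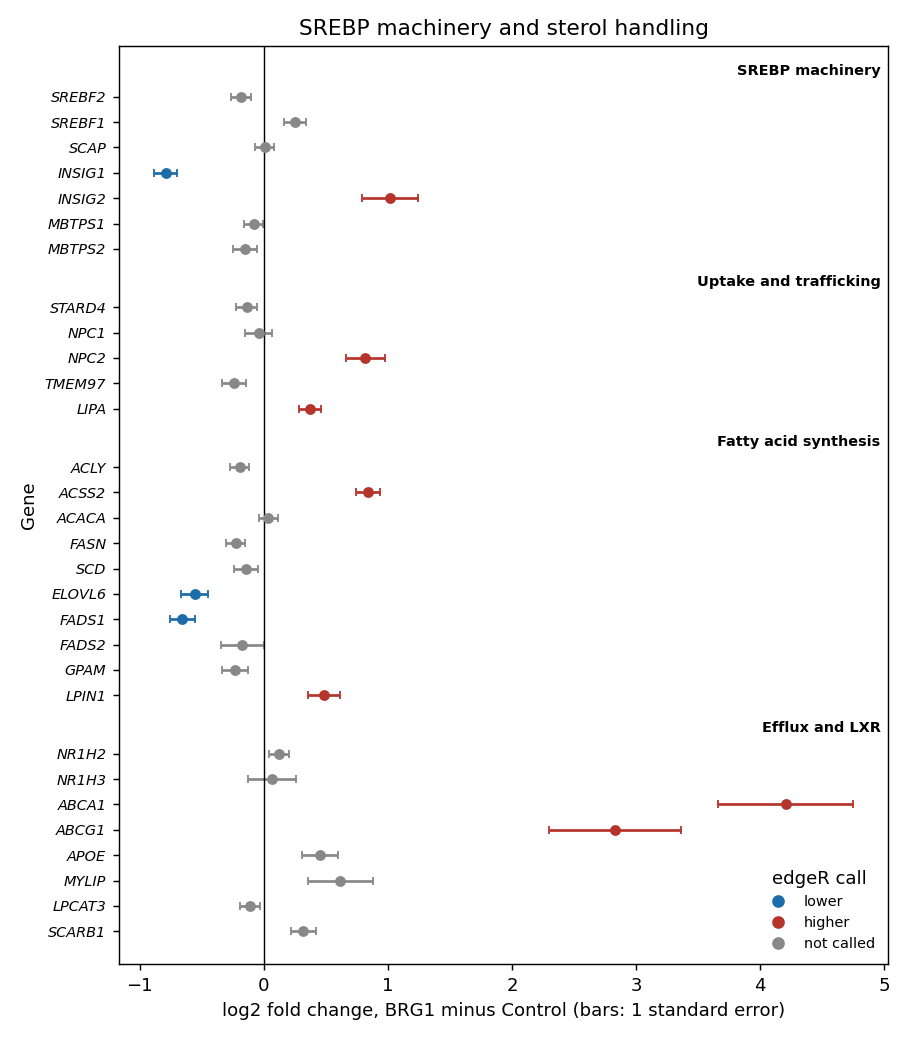
Fitted log2 fold change (BRG1 minus Control, horizontal axis) of genes of the SREBP machinery, sterol uptake, fatty acid synthesis and sterol export. Bars are 1 standard error and colors give the edgeR call with the replicate block. INSIG1 lies at -0.79 and INSIG2 at 1.02, and the export genes ABCA1 and ABCG1 lie at 4.21 and 2.83.

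Averaged over the 8 genes, the centred log2 level was 0.15, 0.27 and 0.33 in Control samples 1 to 3 and -0.35, -0.20 and -0.20 in BRG1 samples. Among other genes with a mean of at least 100 normalised counts, those with the highest Pearson correlation with this mean over the 6 samples were RFESD (r = 0.992), NEIL2 (0.990), SMKR1 (0.988), C11orf54 (0.988) and TOP2B (0.985). Of the other sterol and fatty acid genes ACAT2 came nearest (r = 0.983), and ACSS2 (r = -0.961) and ABCA1 (r = -0.950) ran most opposite. These correlations are descriptions over 6 samples that fall into 2 groups, so any gene that differs between the groups scores high.

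Other genes moved with the groups. Of 30 cell cycle genes 7 were called lower and 0 higher (26 and 0 at an unadjusted p under 0.05, 19 and 0 by DESeq2 with the block, 0 and 0 by edgeR without it), 30 had a log2 fold change below 0 with a median of -0.46, and their summed level was 1964 to 2741 CPM in Control and 1202 to 2581 CPM in BRG1 samples. Among all genes tested 5.50% were called lower and 55.5% had a log2 fold change below 0. Of 24 interferon response genes tested 24 were called higher, with a summed level over the 25 listed of 643 to 731 CPM in Control and 6625 to 7416 CPM in BRG1 samples. Of 12 markers of blood, endothelial, liver and fibroblast cells 8 were tested, and 3 of these were called higher (VWF, CDH5 and HBB) and 0 lower. The summed level of the 12 was 19.6 to 28.0 CPM in Control and 95.6 to 110.8 CPM in BRG1 samples. Of the 12, 4 stayed under 10 counts in every sample, CD3E, CD14 and HBA1 among them. The share of all genes called higher was 13.3%. The part of these in the lower sterol transcripts was not tested.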

How the data were processed

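Poly(A) RNA libraries were prepared from 500 ng of RNA without strand and sequenced from both ends (78 bases). Alignment by the authors used STAR (v2.5.3a) and hg38, and transcript abundances from salmon (v0.8.2) were combined by tximport. What was deposited are estimated counts for each symbol, that is, TPM multiplied up by transcript length and library size. Reads shared by similar or overlapping genes are divided by a model, so those values are uncertain.

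The estimated counts were rounded, and edgeR (v4.0.16, R 4.3.3) tested the 14225 of 19899 genes that reached 10 counts in 3 or more samples, using TMM factors, the quasi-likelihood F test, the replicate number as a block and Benjamini-Hochberg adjustment. A gene was called at an adjusted p under 0.05. The study names DESeq2 without its formula. DESeq2 (v1.42.0) and limma-voom (v3.58.1) were alternatives here. Intervals are 95% intervals of the fit, and standard errors were taken from its F statistic. The study describes biological replicates given either plasmid for another line, BIN67, and refers to that protocol for COV434. It does not state that samples of equal number share a culture, so the pairing is inferred. In the data, deviations from the group means correlated at 0.37, 0.33 and 0.48 within numbers and at -0.38 to 0.06 between them (14225 genes). Because the deviations in a group cancel out, higher correlations within numbers go with lower ones between them. The p-values measure the spread between these transfections of 1 line. On simulated data the share of false calls was above the threshold when few genes were changed and close to it when about as many were changed as were called.

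The genes and lists were chosen with earlier results of these data known. Values are printed for the 8 genes, for SREBF1, SCAP, INSIG2, CH25H and ABCA1, for up to 4 called genes of each pathway list with the largest change, and for the 5 genes most correlated with the 8. Some genes of the lists are counted but not reported by name here. Positions are from GENCODE 44 (GRCh38), and promoters from RefSeq (GRCh38.p14).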

Additional observations from a re-analysis of the deposited data

How the results depend on the processing

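Each of the 8 genes had a log2 fold change below 0 in each of the 19 alternative settings. The setting with an adjusted p under 0.01 kept the main fit and changed the threshold alone. The calls were less steady, and the cause was not tested. With no replicate block edgeR called 2 of the 8 lower, 2 of the further 15 enzymes lower, 1 gene lower and 3 higher of the other 7 pathway lists (2 and 7 with the block), and 140 genes in all lower. DESeq2 with no replicate block gave 4, 2 and 1 lower, and 321 in all. At an adjusted p under 0.01 there were 3 further enzymes lower, 1 gene lower and 2 higher of the other lists, and 149 in all lower. Library totals alone gave 440 in all lower. Leaving out 1 replicate number with the block gave 2 to 5 of the 8 lower, 2 to 6 further enzymes lower, 0 to 3 lower and 2 to 7 higher of the other lists, and 21 to 923 lower and 668 to 1848 higher in all, the lowest counts coming without replicate 2. Leaving out a single sample with no replicate block, in the order Control replicates 1, 2 and 3 and BRG1 replicates 1, 2 and 3, gave 2, 1, 1, 1, 1 and 3 of the 8 lower, 1, 1, 0, 0, 0 and 2 further enzymes lower, 0, 0, 0, 0, 0 and 1 lower and 3, 3, 3, 2, 2 and 4 higher of the other lists, and 43, 49, 51, 49, 22 and 188 lower and 1043, 981, 1031, 704, 634 and 1209 higher in all. SCAP, near 0 in every fit, was -0.013 with upper-quartile factors, -1.0e-05 with no replicate block, -8.9e-05 without the filter, -0.0031 to 0.089 without a replicate number, and -0.033, -0.11 and -0.081 without Control replicate 1, Control replicate 2 and BRG1 replicate 3 and no block. CH25H was -0.052 to 0.54 without a replicate number. ABCA1 passed the filter in 17, ABCG1 in 12 and CH25H in 18 of the 19 settings. The 8 genes had 600 to 20547 counts per sample. The parts of counting error and of the number of replicates in the precision were not tested.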
